A study of Canis lupus familiaris with 16 samples.

Results

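The genes described here encode the ligands and receptors of the WNT, fibroblast growth factor (FGF), bone morphogenetic protein (BMP), activin and TGF-beta, NOTCH, hedgehog, PDGF, VEGF, IGF and GDNF pathways. They were chosen by gene symbol alone, as every WNT, FZD, FGF, FGFR, BMP, BMPR, GDF, TGFB, TGFBR, PDGF, VEGF, IGF, INHB, NOTCH, DLL and JAG symbol together with GDNF, SHH and DHH. The choice gave 104 of the 18111 genes whose transcription start could be recovered from the peak lists. By family these were 18 WNT ligands, 6 Frizzled receptors, 20 FGF ligands and 4 FGF receptors, 21 BMP, GDF, activin and TGF-beta genes with 5 of their receptors, 8 NOTCH receptors and ligands, 2 hedgehog ligands, 9 PDGF, VEGF, IGF and GDNF ligands and 4 PDGF and IGF receptors. The symbols also took in 7 genes with other functions (BMP2K, FGFR1OP, IGF2BP1, IGF2BP2, IGF2BP3, PDGFRL and TGFB1I1), and BMP1, counted with the BMP ligands, encodes a protease. FGF13, counted with the FGF ligands, has a product that acts inside neurons. A further 18 protein-coding symbols that the same choice takes in, VEGFA, VEGFB, IHH, JAG2, BMPR2 and FZD3 among them, had no single recovered start. Whether each had no assigned peak under that symbol, or peaks that gave several starts, was not separated.

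These pathways carry signals between cells and pattern the embryo, and many of their ligands are used in few adult tissues. WNT proteins bind Frizzled receptors and stabilise beta-catenin, FGFs, PDGFs, VEGFs and IGFs act through receptor tyrosine kinases, BMPs, activins and TGF-betas act through receptor kinases that phosphorylate SMAD proteins, and NOTCH receptors are cleaved when they meet DLL or JAG ligands on a neighbouring cell. In the lymphoid system NOTCH and TGF-beta signals steer lymphocyte development, and methylation of CpG islands at developmental genes is a known feature of lymphomas.

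Methylated DNA was captured and sequenced (MethylCap-seq) from tumour cells drawn by needle from the enlarged lymph nodes of 5 dogs affected by high-grade B-cell lymphoma, and from mononuclear cells separated from the blood of 3 healthy dogs. The dogs with lymphoma were 5 to 13 years old, with tumour stages between III and V, and comprised a schnauzer, a mixed-breed dog, a dachshund, a golden retriever and a dog whose breed is not given. The healthy dogs were 2 to 7 years old and comprised a mixed-breed dog, a golden retriever and a standard poodle. Every dog is represented by an L and an M-H library, 16 libraries in all, and the sources used here do not say what the letters stand for. The deposited data are 4 peak lists, lymphoma L, healthy L, lymphoma M-H and healthy M-H, each combining the dogs of its group. There is no value per dog, so no difference between groups could be tested, and all comparisons below are of single pooled lists. Lymphoma and healthy also differ in tissue and in age, and these cannot be told apart from the disease. In such bulk DNA, more cells of a type that is methylated at a site and more methylation per cell cannot be told apart either.

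The lymphoma L list held 45623 peaks and the healthy L list 44811, and the lymphoma M-H list held 34939 against 19867 in the healthy M-H list. Of these, 211, 187, 203 and 105 peaks were assigned to the 104 genes in the lymphoma L, healthy L, lymphoma M-H and healthy M-H lists. Each peak has a fold enrichment of reads over background, which is the authors' value and is used below only to describe a peak within its own list. No deposited peak had a value below 6, so a site without a peak may still hold methylated DNA below that level. A gene was said to have a promoter peak where any peak shared at least 1 bp with the 1 kb on either side of its start, and a gene body peak where a peak assigned to it lay in an intron, coding exon or UTR outside that window. Coordinates are those of the deposited lists on CanFam3.1. Markers of other cells were read at the same promoters, although a methylation peak does not measure expression. The promoters of CD8A, a marker of cytotoxic T cells, and CD14, a marker of monocytes, and that of the collagen gene COL1A2, expressed by stromal cells, carried a peak in lymphoma only in both fractions. Promoter peaks in lymphoma only were found in L at 0 of 6 B-cell, 1 of 5 T-cell, 1 of 2 monocyte and 1 of 5 stromal and endothelial markers, and in M-H at 0, 1, 1 and 2 of them. The part of cell make-up in the counts below was not tested.

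Promoters of the signalling genes carried methylation peaks more often in lymphoma than in healthy dogs. In the L libraries a promoter peak was present in lymphoma but not in healthy at 25 of the 104 genes (24.0%), beside 16.0% of all genes and 17.0% of named protein-coding genes. Another 5 (4.81%) had one in healthy only, beside 3.85% of all genes, and 10 (9.62%) had one in both groups, beside 15.4%. In the M-H libraries a lymphoma-only promoter peak was found at 39 genes (37.5%), beside 18.7% of all genes and 20.3% of named protein-coding genes. None of the 104 had one in healthy M-H only, where 0.712% of all genes did, and 6 (5.77%) had one in both groups, beside 10.2%. In each fraction the share with a lymphoma-only promoter peak thus lay above that of all genes, and the share with a peak in both groups lay below it. A promoter peak in lymphoma only in both fractions was found at 20 genes (19.2%), beside 10.4% of all genes. These shares depend on how genes entered, since each needed an assigned peak in some list. Among the 20, FGF4, FGF10, FGF19, FGF20, FGFR4, GDF7, GDF15, IGF2BP3 and WNT10A had no assigned peak in either healthy list. They entered through the lymphoma lists alone. The 18 symbols without a single recovered start are in no denominator, and all 18111 genes were filtered in the same way. No promoter peak in any list was found at 54 of the 104 genes, beside 10907 of all 18111. With the lists of each comparison cut to equal length by fold enrichment, the M-H lymphoma-only count was 15 (14.4%), beside 10.5% of all genes. Counting only peaks whose fold enrichment reached 8, in either list, the L lymphoma-only count was 14 (13.5%), beside 13.6% of all genes.

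**Figure D1:**
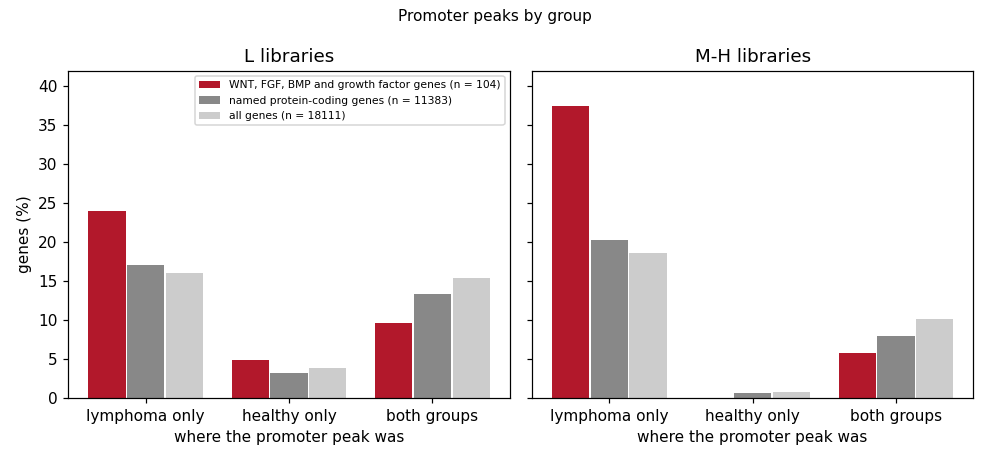
Share of genes (vertical axis, %) whose promoter peak was found in lymphoma only, in healthy only or in both groups (horizontal axis), in the L libraries (left) and the M-H libraries (right). Bars stand for the 104 signalling genes, for 11383 named protein-coding genes and for all 18111 genes, each from 1 pooled list per group and so without error bars. The lymphoma-only bar of the signalling genes stands at 24.0% in L and 37.5% in M-H, against 16.0% and 18.7% for all genes.

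The genes counted as FGF ligands made up the largest share of these promoters. Most of them bind receptor tyrosine kinases on nearby cells or, for the hormone-like members, in distant organs, but FGF13 acts inside neurons. Of these 20 genes, FGF13 included, 8 were lymphoma-only at the promoter in both fractions, beside 10.4% of all genes. A promoter peak in some list was found at 12 of them, beside 7204 of all 18111 genes. FGF10, a mesenchymal factor for limb and lung buds, had a fold enrichment of 11.7 in lymphoma L and 12.9 in lymphoma M-H, at chr4:65851275-65852075 in the L list, where the authors annotate coding sequence. The nearest healthy L peak to the FGF10 start was 37165 bp away and the nearest healthy M-H peak 36794 bp away. FGF2, the basic fibroblast growth factor, had peaks of 12.8 in lymphoma L and 14.9 in lymphoma M-H at its start (chr19:17462364-17463141 in L). FGF20, known from brain and inner ear, had peaks of 11.3 and 16.3 in lymphoma L and lymphoma M-H (chr16:40338915-40340022 in L). FGF9, a factor of gonad and lung development, had peaks of 9.56 in lymphoma L and 13.3 in lymphoma M-H, inside a CpG island (chr25:16664526-16665978 in L). FGF18, a regulator of cartilage and bone, had peaks of 10.2 and 12.8 that began 543 and 749 bp into the gene (chr4:40747242-40748350 in L). In each of these genes the lymphoma peak appeared in both fractions at nearly the same place, and the healthy lists had none in the window.

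FGF3, FGF4 and FGF19 lie next to one another on chromosome 18, with starts at 48382820, 48413481 and 48464932, and all carried lymphoma-only promoter peaks in both fractions. FGF3, a factor of inner ear and tooth development, had peaks of 8.40 in lymphoma L and 13.0 in lymphoma M-H, 770 and 776 bp upstream of the start. FGF4, a factor of the early embryo and limb ridge, had peaks of 7.83 and 9.44 spanning its start, and FGF19, a gut hormone that restrains bile acid synthesis, had peaks of 7.63 and 10.7 spanning its start. Since the 3 genes are neighbours, they are not independent examples of a methylated promoter, although no peak lay in the windows of more than 1 of them. Their peaks were separate, and the healthy peak nearest to any of the 3 starts was 5171 bp from that of FGF3, in M-H.

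FGF1, the acidic fibroblast growth factor, had a promoter peak in both L lists. That peak had a fold enrichment of 15.7 in lymphoma L, in the 92nd percentile of that list, and of 8.82 in healthy L, in the 66th percentile. In M-H the FGF1 peak had 16.5 in lymphoma and was absent from the healthy list, whose nearest peak was 268440 bp away. FGF21, a liver hormone of the fasting response, had a promoter peak in all 4 lists, with 10.6 in lymphoma L, 6.12 in healthy L, 11.6 in lymphoma M-H and 6.32 in healthy M-H. The lymphoma L and healthy M-H peaks at FGF21 were assigned by the authors to its neighbour IZUMO1. FGF6, a muscle FGF, had a peak in both L lists, of 9.85 in lymphoma and 10.2 in healthy, and none in either M-H list. FGF13, whose product acts inside neurons, had promoter peaks in lymphoma M-H only, and the nearest lymphoma L peak began 1069 bp from the start, just outside the window.

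All 3 FGF receptor genes with a promoter peak had it only in lymphoma. FGFR4, the receptor through which FGF19 acts in liver, had peaks of 11.3 in lymphoma L and 15.2 in lymphoma M-H over its start (chr4:36253980-36254937 in L), and the nearest healthy peak was 40158 bp away. FGFR1 and FGFR2 had promoter peaks in lymphoma M-H only, of 8.39 and 6.92. FGFR3 had no promoter peak.

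**Figure D2:**
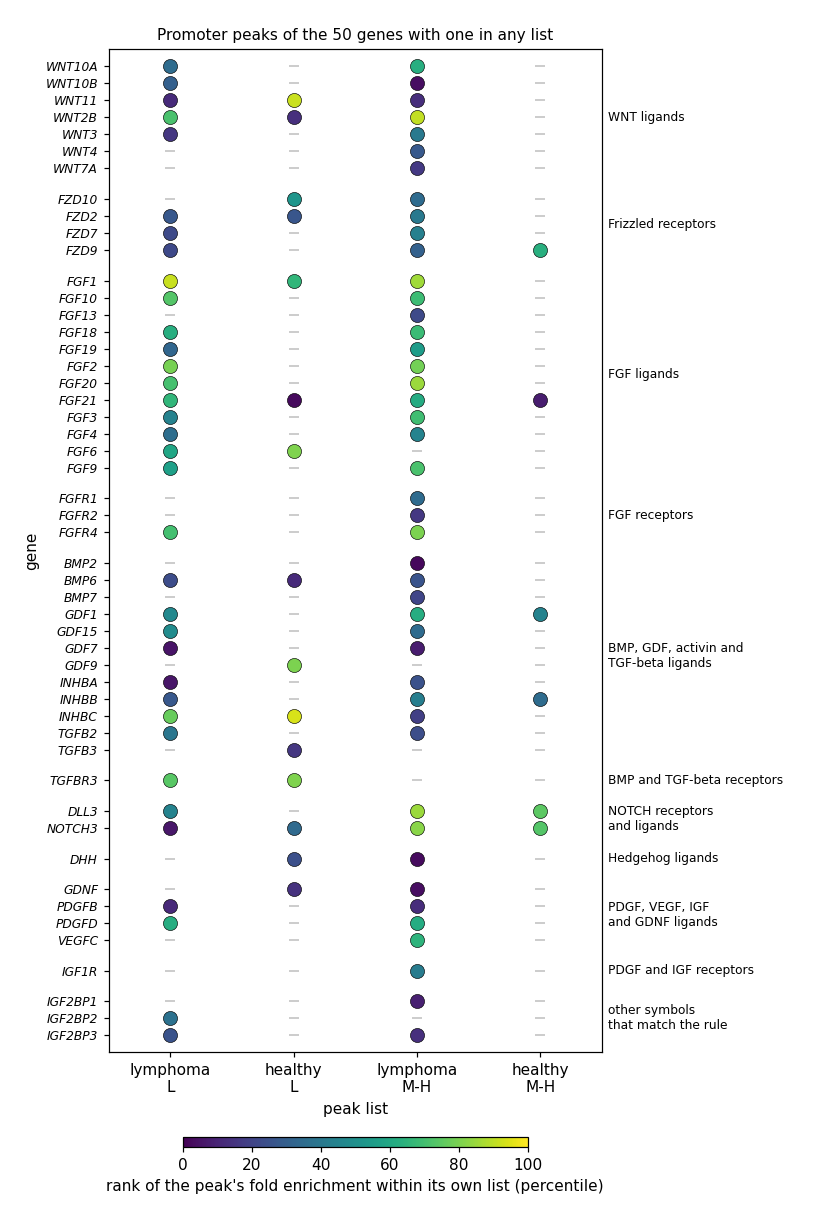
Promoter peaks of the 50 genes that had one in any list (rows, grouped by family), in each of the 4 pooled lists (columns). A circle marks a peak, coloured by the percentile of its fold enrichment within its own list, and a dash marks no peak in the 1 kb on either side of the start. The lymphoma L and lymphoma M-H columns hold 35 and 45 circles, and the healthy L and healthy M-H columns hold 15 and 6.

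Among the 18 WNT ligands 3 promoters were lymphoma-only in L and 7 in M-H, beside 16.0% and 18.7% of all genes, and none was healthy-only. WNT10A, a factor of teeth, hair and skin, had peaks of 7.76 in lymphoma L and 11.8 in lymphoma M-H over its start (chr37:25462532-25463551 in L), and the nearest healthy L peak lay 1227 bp away. WNT3, needed to form the embryonic axis, had peaks of 6.65 and 8.98 in lymphoma L and lymphoma M-H, 162 and 239 bp upstream in a CpG island, and the nearest healthy peak was 10262 bp from the start. WNT10B, which restrains fat cell formation, was a borderline case, with peaks of 7.43 and 6.17 that began 940 and 947 bp into the gene. WNT4 and WNT7A had promoter peaks in lymphoma M-H only, of 7.79 and 6.96.

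WNT2B and WNT11 had promoter peaks in both groups in L and in lymphoma only in M-H. WNT2B, expressed in developing retina and liver, had the highest promoter value of the lymphoma M-H list among the signalling genes, 17.8, at chr17:63054710-63055477, 340 bp upstream of its start. The matching lymphoma L peak had 11.4, whereas the healthy L peak, of 6.37, lay downstream of the start at chr17:63053916-63054274, where lymphoma L had a further peak of 6.19. The upstream part of the WNT2B promoter thus had a peak in both lymphoma lists and in neither healthy list. WNT11, a ligand of the beta-catenin-independent branch, ran the other way in rank. Its healthy L peak, of 12.0 in the 92nd percentile, ended 435 bp upstream of the start, while the lymphoma L peak had 6.52, in the 12th percentile, and reached across the start.

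Of the 6 measured Frizzled receptors 4 had promoter peaks in some list, beside 7204 of all 18111 genes. FZD7, a WNT receptor of stem cells, was lymphoma-only in both fractions, with 7.02 in lymphoma L and 9.33 in lymphoma M-H, at the edge of the window (941 and 995 bp into the gene). Healthy peaks that overlapped these FZD7 peaks began 1334 bp into the gene in L, with 7.52, and 1964 bp in M-H, with 7.95, so the site itself was shared by both groups. FZD9, deleted in Williams syndrome in humans, was lymphoma-only in L with 7.00 but had peaks of 8.03 in lymphoma M-H and 9.07 in healthy M-H. FZD2 had a peak in both groups in L, of 7.30 in lymphoma and 6.84 in healthy, and in lymphoma only in M-H, of 8.98. FZD10 had opposite calls in the fractions. Its peak was in healthy L only, with 7.91 (chr26:1907805-1908930), and in lymphoma M-H only, with 8.38 (chr26:1907928-1909706), and a healthy M-H peak of 6.03 that overlapped the lymphoma M-H peak lay just outside the window, 1109 bp from the start.

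Among the 21 BMP, GDF, activin and TGF-beta genes, to be read beside the same all-gene shares, 6 promoters were lymphoma-only in L and 8 in M-H, against 2 and 0 that were healthy-only. Lymphoma-only in both fractions were GDF15, a stress-induced hormone, with 8.78 in lymphoma L and 8.42 in lymphoma M-H, and TGFB2, a TGF-beta of heart and eye development, with 8.11 and 7.48, which ended 400 and 414 bp upstream of its start. GDF7, a roof-plate signal in the spinal cord, had 6.20 and 6.43, and INHBA, which encodes the activin A subunit, had 6.24 and 7.59. The values of GDF7 and INHBA lie near the lowest deposited value, and the nearest healthy L peak to the INHBA start was 1006 bp away, just outside the window. INHBB, the activin B subunit, and GDF1, a left-right axis signal, were lymphoma-only in L, with 7.30 and 8.67, and had peaks in both M-H lists. INHBB had 9.21 in lymphoma M-H and 7.38 in healthy M-H, and GDF1 had 11.8 in lymphoma M-H and 7.84 in healthy M-H. BMP2 and BMP7, inducers of bone and kidney development, had promoter peaks in lymphoma M-H only, of 6.06 and 7.25. BMP6, a regulator of iron balance, had a peak in both L lists, of 7.09 in lymphoma and 6.30 in healthy, and in lymphoma only in M-H, of 7.70. INHBC, an activin subunit of the liver, likewise had 12.3 in lymphoma L and 12.5 in healthy L, and 7.15 in lymphoma M-H only.

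Promoter peaks in healthy only were few. GDF9, an oocyte factor, had a healthy L peak of 10.2, in the 80th percentile of its list, 842 bp upstream of its start (chr11:21149788-21150218), and the nearest lymphoma peak was 25708 bp from the start. TGFB3, needed for closure of the palate, had a healthy L peak of 6.48 that began 883 bp into the gene, and a lymphoma L peak of 7.37 that overlapped it lay 1273 bp from the start, outside the window. DHH and GDNF completed the 5, and both had the opposite call in M-H. DHH, the hedgehog ligand of testis and peripheral nerve, had 6.70 in healthy L only (chr27:5490060-5490659) and 6.12 in lymphoma M-H only (chr27:5489994-5490830). GDNF, a survival factor for neurons and ureteric bud, had 6.42 in healthy L only and 6.18 in lymphoma M-H only. Together with FZD10 they were 3 of 104 genes with this pair of calls (2.88%), beside 0.237% of all genes.

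TGFBR3, the co-receptor betaglycan, was the sole member of the 5 BMP and TGF-beta receptors with a promoter peak, and it had it in both L lists, with 11.8 in lymphoma and 10.2 in healthy. Among the 8 NOTCH genes none was lymphoma-only in both fractions, where 10.4% of all genes were, so few would be looked for in so small a family. NOTCH3, a receptor of vascular smooth muscle, had a promoter peak in all 4 lists, with 6.27 in lymphoma L, 7.06 in healthy L, 15.6 in lymphoma M-H and 10.0 in healthy M-H. An intron peak that began 881 to 1015 bp from the NOTCH3 start was in all 4 lists, and the lymphoma L value comes from a separate peak upstream of the start (chr20:46946110-46946593). DLL3, a NOTCH ligand that inhibits signalling from within the cell, was lymphoma-only in L with 8.49 and in both M-H lists, with 16.3 in lymphoma and 10.1 in healthy. NOTCH1, NOTCH2, NOTCH4, DLL1, DLL4 and JAG1 had no promoter peak.

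Of the 9 PDGF, VEGF, IGF and GDNF ligands PDGFB and PDGFD were lymphoma-only in both fractions, where 10.4% of all genes were. PDGFD, a ligand of PDGF receptor beta, had peaks of 10.2 in lymphoma L and 11.7 in lymphoma M-H over its start (chr5:27863374-27864872 in L), and the annotated gene LOC111095862 also starts in that window. PDGFB, the B chain of PDGF, had 6.49 and 6.70, in a CpG island, and the authors assigned both peaks to LOC102152176. VEGFC, which drives growth of lymphatic vessels, was lymphoma-only in M-H with 12.2, but that peak ended at -983 bp from the start, and the other 3 lists had a peak 1172 to 1190 bp from the start, that of healthy M-H overlapping it with 8.11. Another lymphoma M-H peak of VEGFC, of 6.82 at chr16:52883185-52883620, lay over the start and had no counterpart. Of the 4 PDGF and IGF receptors IGF1R alone had a promoter peak, in lymphoma M-H only, with 9.09. IGF2BP3, an RNA-binding protein of fetal tissues, was lymphoma-only in both fractions with 7.16 in lymphoma L and 6.77 in lymphoma M-H.

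The 2 lymphoma fractions were also set against each other. A promoter peak was in lymphoma L but not in lymphoma M-H at 3 genes (2.88%), FGF6, IGF2BP2 and TGFBR3, beside 7.08% of all genes. The reverse held at 13 genes (12.5%), beside 4.46% of all genes, among them BMP2, BMP7, FGFR1, FGFR2, IGF1R, WNT4 and WNT7A. With the lymphoma lists cut to equal length the 13 became 22, beside 7.65% of all genes, and with a minimum fold enrichment of 8 for the lymphoma M-H peak they became 4, beside 1.76%.

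Most promoter peaks of the signalling genes lay in or beside a CpG island, a stretch rich in CpG sites, the shore being its flank. In lymphoma L 31 of 35 promoter peaks (88.6%) lay in a CpG island or its shore by the authors' flags, beside 77.6% over all genes, and in lymphoma M-H 42 of 45 (93.3%), beside 84.5%. The island itself held 37.1% of the lymphoma L promoter peaks of these genes, beside 17.3% over all genes, and 31.1% of those in lymphoma M-H, beside 22.7%. In healthy L 11 of 15 promoter peaks (73.3%) lay in an island or shore, beside 65.7% over all genes, and in healthy M-H 6 of 6, beside 82.9%. The island itself held 13.3% of them in healthy L, beside 16.1% over all genes, and 33.3% in healthy M-H, beside 28.9%. The promoter peaks were not strong ones. Their median fold enrichment was 8.11 in lymphoma L and 8.98 in lymphoma M-H, beside 9.36 and 10.7 over all genes with a promoter peak in those lists, and 7.06 and 8.45 in healthy L and healthy M-H, beside 8.15 and 8.35. Among the families with at least 5 promoter peaks in a lymphoma list FGF ligands lay highest, with a median of 10.2 over 11 promoters in lymphoma L and 12.9 over 11 in lymphoma M-H.

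Around the starts, peaks of the signalling genes were densest 250 bp downstream in both lymphoma lists. At that position 21.2% of the 104 genes were covered by a lymphoma L peak, beside 17.3% of all genes, and 27.9% by a lymphoma M-H peak, beside 16.9%. At the start itself 14.4% were covered in lymphoma L, 4.81% in healthy L, 23.1% in lymphoma M-H and 0% in healthy M-H, beside 15.5%, 6.52%, 15.9% and 4.71% of all genes. A shoulder stood further into the genes. At 1500 bp downstream 15.4% of the signalling genes were covered in lymphoma L and 10.6% in healthy L, beside 5.16% and 3.61% of all genes, and in M-H 11.5% were covered in lymphoma, beside 4.36% of all genes, and 2.88% in healthy. In lymphoma M-H coverage there was below that at the start, and in the other 3 lists it was above it. Each of the 104 genes counts for 0.962% in these profiles.

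**Figure D3:**
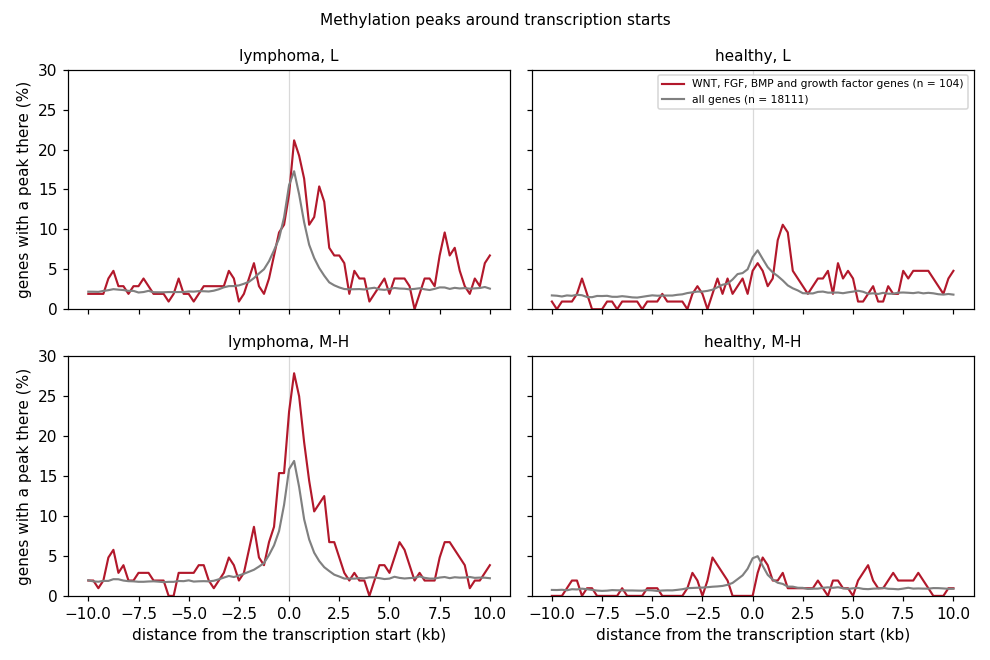
Share of genes covered by a peak (vertical axis, %) at each position from 10 kb upstream to 10 kb downstream of the transcription start (horizontal axis, kb, in the direction of transcription), in 250 bp steps, for lymphoma (left) and healthy (right) and for L (top) and M-H (bottom). The red line is the 104 signalling genes and the grey line all 18111 genes. The red line reaches 21.2% in lymphoma L and 27.9% in lymphoma M-H at 250 bp, and in healthy L its highest point, 10.6%, is at 1500 bp.

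Gene bodies were more evenly split between the groups than promoters in L. In lymphoma L 71 of the 104 genes (68.3%) had a gene body peak, against 68 (65.4%) in healthy L, and 56 (53.8%) had it in both, beside 50.9%, 52.7% and 41.9% of all genes. Among named protein-coding genes these 3 shares were closer to those of the signalling genes, at 61.5%, 62.5% and 51.4%. In L 15 genes (14.4%) had gene body peaks in lymphoma only, beside 9.06% of all genes, and 12 (11.5%) in healthy only, beside 10.8%. In M-H 19 (18.3%) had them in lymphoma only, beside 13.5% of all genes, and 3 (2.88%) in healthy only, beside 1.96%. Named protein-coding genes were lymphoma-only at 10.15% in L and 15.6% in M-H, and healthy-only at 11.1% and 2.2%. With lists of equal length the counts were 12 in lymphoma only and 12 in healthy only in L, beside 8.71% and 11.0% of all genes, and 13 and 15 in M-H, beside 5.33% and 6.86%, so the M-H order turned for these genes and for all genes. By number of peaks, 26 genes had more in lymphoma L and 30 more in healthy L, and in M-H 39 had more in lymphoma and 7 more in healthy. The same counts were not made over all genes. The mean number of gene body peaks per signalling gene was 1.22 in lymphoma M-H and 0.779 in healthy M-H, beside 0.816 and 0.486 over all genes. In L the means were 1.43 in lymphoma and 1.45 in healthy, beside 1.15 and 1.23. Gene length was not matched in these counts.

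The genes with the most gene body peaks were FGFR2, FGF13 and IGF1R. FGFR2 had 8 in lymphoma L, 7 in healthy L, 5 in lymphoma M-H and 2 in healthy M-H, mostly in its introns. IGF1R, the receptor of insulin-like growth factors, had fewer in lymphoma than in healthy dogs in L, 4 against 9, and 2 against 2 in M-H. The IGF1R intron peak at chr3:42026094-42026720 was in all 4 lists, with 21.4 in lymphoma L, 11.3 in healthy L, 20.9 in lymphoma M-H and 7.19 in healthy M-H. PDGFD too had fewer in lymphoma L, 4 against 7 in healthy L, while its promoter had peaks in lymphoma only. PDGFRB, the receptor of PDGFB and PDGFD on mesenchymal cells, ran the other way, with 5 intron peaks in lymphoma L against 1 in healthy L, and 4 in lymphoma M-H against 2 in healthy M-H. BMP7 had 3 gene body peaks in lymphoma L against 0 in healthy L, and 6 in lymphoma M-H against 4 in healthy M-H. WNT2, which acts in lung and placenta, had 2 in lymphoma L and 3 in lymphoma M-H against none in either healthy list. WNT3A had 4, 5, 4 and 4 in lymphoma L, healthy L, lymphoma M-H and healthy M-H, and WNT7A 4, 4, 3 and 4, so these genes were peaked in every list. BMP1, NOTCH3 and FGF14 had 5 each in lymphoma L against 4, 3 and 3 in healthy L. BMP4 had 3 in lymphoma M-H against 1 in healthy M-H, but its gene body peaks lay at least 45696 bp from the recovered start at 30254308, and the peak in its coding sequence was at chr8:29997943-29998467 (healthy L). BMPR1A, a BMP receptor, had 3 in every list but healthy M-H, which had 1.

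**Figure D4:**
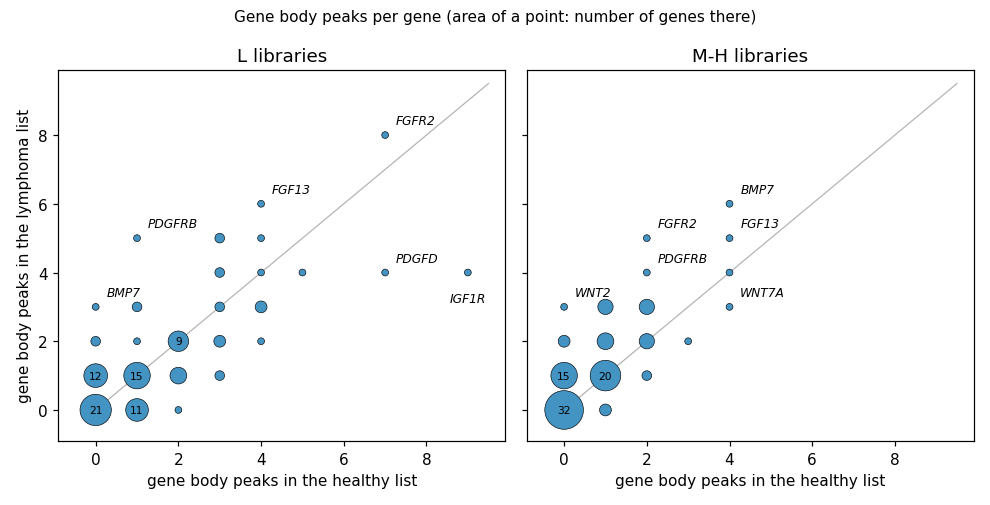
Number of gene body peaks per gene in the healthy list (horizontal axis) and in the lymphoma list (vertical axis), for L (left) and M-H (right). The area of a point gives how many of the 104 genes lie there, with the number written in for 8 or more, and the line marks equal numbers. In L 26 genes lie above the line and 30 below it, and in M-H 39 lie above and 7 below. These counts were not made over all genes, and the lymphoma M-H list is longer than the healthy M-H list.

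Several gene bodies were peaked in the same place in all lists. PDGFC, a ligand of PDGF receptor alpha, had the highest fold enrichment of any peak assigned to these genes in lymphoma L, 28.7, and in healthy L, 26.6, at a single intron site (chr15:54175727-54176190 in lymphoma L), with 21.9 in lymphoma M-H and 15.2 in healthy M-H. FGF9, whose promoter was lymphoma-only, had an intron peak of 17.8 in lymphoma L, 10.1 in healthy L, 21.9 in lymphoma M-H and 14.6 in healthy M-H (chr25:16644168-16644803 in lymphoma M-H). TGFB1, the main TGF-beta of the immune system, had no promoter peak, but a peak more than 1 kb upstream of its start (chr1:112627184-112627755 in lymphoma L) was in all lists, with 20.4 in lymphoma L, 11.0 in healthy L, 21.4 in lymphoma M-H and 10.3 in healthy M-H. Of all peaks assigned to the 104 genes, 120 of 211 (56.9%) in lymphoma L overlapped a healthy L peak, beside 61.4% of all gene-assigned peaks, and 94 of 203 (46.3%) in lymphoma M-H overlapped a healthy M-H peak, beside 47.9%. Read from the healthy lists, 121 of 187 (64.7%) in L and 93 of 105 (88.6%) in M-H overlapped a lymphoma peak, beside 63.9% and 89.8% of all gene-assigned peaks.

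Peaks in 3′ UTRs were common in these genes. They made up 16.8% of gene body peaks in lymphoma L, 14.6% in healthy L, 18.9% in lymphoma M-H and 17.3% in healthy M-H, beside 7.72%, 6.35%, 8.29% and 6.56% over all genes. A 3′ UTR peak was present in all 4 lists for 10 of the 104 genes (9.62%), beside 1.28% of all genes, and these were FGF5, FGF13, FGF17, IGF1R, TGFBR2, TGFBR3, WNT3, WNT5A, WNT7A and WNT10B. A gene without an annotated 3′ UTR cannot have such a peak, and only 11383 of the 18111 genes were named protein-coding genes. The 3′ UTR shares were not computed for those alone, so the all-gene shares may be too low for a like comparison. The 3′ UTR peak of TGFBR3 had 18.2 in lymphoma L, 13.4 in healthy L, 20.1 in lymphoma M-H and 7.91 in healthy M-H (chr6:57216540-57217187 in lymphoma L). That of TGFBR2, the type II TGF-beta receptor, had 17.4 in lymphoma L, 11.6 in healthy L, 16.2 in lymphoma M-H and 6.62 in healthy M-H. That of WNT7A had 15.0 in lymphoma L, 8.63 in healthy L, 17.6 in lymphoma M-H and 8.81 in healthy M-H. These 10 genes were picked for a 3′ UTR peak in every list, so its presence in both groups was set by the choice. WNT3 and WNT10B had both, a lymphoma-only promoter peak and a 3′ UTR peak in every list.

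Other genes of the same pathways, co-receptors, inhibitors and intracellular parts, gave a like split. They were chosen from textbook knowledge but with earlier results of these data known, so they are not an independent check. Of 150 listed genes 119 were measured, and 28 (23.5%) had a promoter peak in lymphoma L only against 4 (3.36%) in healthy L only, beside 16.0% and 3.85% of all genes. In M-H 47 (39.5%) had one in lymphoma only and 1 in healthy only, beside 18.7% and 0.712% of all genes, and 26 were lymphoma-only in both fractions, where 10.4% of all genes were. By pathway those 26 were 4 of 28 WNT, 2 of 14 FGF, 7 of 30 BMP and TGF-beta, 2 of 15 NOTCH, 3 of 14 hedgehog and 8 of 18 IGF, PDGF, VEGF and GDNF partners. In the WNT pathway they included the R-spondin genes RSPO1 and RSPO4, which amplify WNT signals, with 6.28 and 13.6 in lymphoma L and 15.6 and 15.4 in lymphoma M-H, and PRICKLE1, with 10.1 and 10.0. Inhibitors stood among them in several pathways. The FGF inhibitor SPRED1 had 10.4 in lymphoma L and 14.0 in lymphoma M-H, the activin antagonist FST had 11.4 and 12.7, and the hedgehog-binding HHIP had 6.72 and 8.49. The TGF-beta co-receptor ENG had 13.3 in lymphoma L and 15.0 in lymphoma M-H, and FLT4, the receptor of VEGFC, had 10.4 and 16.3. Hedgehog effectors GLI2 and GLI3 had 6.25 and 10.4 in lymphoma L and 7.41 and 6.41 in lymphoma M-H. In the NOTCH pathway HES5, a target, had 6.58 and 11.5, and DTX1, a modulator, had 7.58 and 11.8. The healthy-only promoters were LGR4 (8.32), FRS2 (6.13), NODAL (6.26) and HEYL (6.54) in L and IRS1 (6.19) in M-H.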

How the data were processed

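The authors deposited 4 peak lists, 1 per peak group of libraries in the labels. The submitters' processing notes name BWA, MACS2 and the build CanFam3.1, and versions, roles and settings are not given in the sources used here. Per the file headers each peak has a position, a fold enrichment (a ratio to a background not described there), an assigned gene with the distance to its start, and island, shore and promoter flags. The deposited fold enrichment is 6 or more throughout, and depth is unknown, since the lists hold no read counts.

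Positions are printed 1-based. Transcription starts were recovered from peak position, strand and distance, giving 1 start for 18111 of 18147 symbols, and 36 symbols with several starts were left out. In 9 peaks the gene columns were shifted and the peaks were kept without a gene. Of 54 symbols turned into dates in the lymphoma L list 51 were restored from their descriptions. Protein-coding symbols came from RefSeq (UU_Cfam_GSD_1.0), used for names only. Calculations used Python 3.11.15, pandas 2.3.3 and NumPy 2.4.6. Tested on simulated lists, they recovered 200 of 200 planted promoter peaks and 200 of 200 gene body peaks. The planted peaks lay wholly inside the promoter window or well beyond it, with their gene and annotation given. Borderline peaks, gene assignment and the recovery of starts were thus not tried.

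Lymphoma was set against healthy separately in the L and the M-H libraries, and lymphoma L against lymphoma M-H, by counts beside the same counts over all genes, with no test because each group is 1 pooled list. Named genes were those healthy-only in a fraction, lymphoma-only in both, the 10 highest lymphoma-only folds per fraction, those peaked in all lists, those with most or most different gene body peaks, and up to 4 partners per pathway and fraction. Other genes were named after their values were seen. A marker gene is not reported here by name and remains in the counts. The members and lists were chosen with earlier results of these data known. Alternatives were other promoter windows, the authors' own flags, a fold of at least 8, equal list lengths, absence over 5 kb and a larger overlap. Sequences are not printed, since no genome of this build was used here.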

Additional observations from a re-analysis of the deposited data

Results flagged for a closer look

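At 3 promoters the groups differed in opposite directions in the 2 fractions, and none of these differences was tested. DHH had a promoter peak of fold enrichment 6.12 in lymphoma M-H only and of 6.70 in healthy L only. FZD10 had 8.38 in lymphoma M-H only and 7.91 in healthy L only, although a healthy M-H peak outside the window overlapped the lymphoma M-H peak. GDNF had 6.18 in lymphoma M-H only and 6.42 in healthy L only. All of these values but that of FZD10 in M-H are below 8. NOTCH1 showed the same pattern in its gene body, with 1 peak in lymphoma M-H only and 2 peaks in healthy L only, also untested.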

How the results depend on the processing

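Of 77 alternative values 47 stayed within 1.5 times the reported count and 30 did not. Promoter peaks in lymphoma only outnumbered those in healthy only in all 7 alternatives in each fraction, as they did over all genes. In the counts below, brackets give the share of the 104 genes, then that of all genes. Counting only peaks whose fold enrichment reached 8, there were 14 lymphoma-only (13.5%, 13.6%), 2 healthy-only (1.92%, 2.29%) and 4 shared promoters (3.85%, 7.81%) in L. In M-H there were 24 lymphoma-only (23.1%, 16.5%) and 3 shared (2.88%, 5.71%), and 12 genes were lymphoma-only in both fractions (11.5%, 8.54%). Gene body counts were then 7 healthy-only in L (6.73%, 6.56%), and 34 lymphoma-only (32.7%, 15.5%) and 1 healthy-only (0.962%, 0.988%) in M-H. Of the peaks assigned to these genes 53 in lymphoma L (41.7%) and 41 in lymphoma M-H (29.5%) overlapped a healthy peak, beside 48.2% and 36.2% of all gene-assigned peaks. A further alternative, added after seeing the data, required 8 of the gene's own peak only. Then 12 were lymphoma-only (11.5%, 9.33%) and 1 healthy-only (0.962%, 1.18%) in L, and 21 lymphoma-only in M-H (20.2%, 13.1%). Lymphoma-only in both fractions were 9 (8.65%, 6.01%), and 4 had a lymphoma promoter peak in M-H but not L (3.85%, 1.76%). Equal list lengths gave 15 lymphoma-only (14.4%, 10.5%) and 2 healthy-only promoters (1.92%, 2.82%) and 15 healthy-only gene bodies (14.4%, 6.86%) in M-H. They also gave 12 lymphoma-only promoters in both fractions (11.5%, 6.81%), and 22 with a lymphoma promoter peak in M-H but not L (21.2%, 7.65%). The authors' own flags gave 8 healthy-only promoters in L (7.69%, 5.59%) and 1 in M-H (0.962%, 1.37%). With those flags 5 had a lymphoma promoter peak in L but not M-H (4.81%, 8.85%) and 21 the reverse (20.2%, 5.73%). Absence over 5 kb left 13 lymphoma-only in both fractions (12.5%, 7.86%), and a 500 bp window left 3 healthy-only in L (2.88%, 2.51%). A window from 2 kb upstream to 500 bp downstream gave 11 promoters in both groups (10.6%, 10.8%) and 1 healthy-only (0.962%, 0.834%) in M-H. A gene body beyond 2 kb gave 1 healthy-only in M-H (0.962%, 1.68%). The causes of these shifts were not tested. No paired analysis was possible because each list pools its dogs. A list pooled over 5 dogs and one over 3 may differ in depth, which is unknown, and the spread between dogs cannot be seen.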
